A study of Mus musculus with 31 samples.

Results

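Rad21 peaks on mouse chromosome 16 were examined in 16 chromatin immunoprecipitation sequencing (ChIP-seq) libraries. All peaks that the deposited Rad21 peak lists place on chromosome 16 were taken, apart from those in the intervals chr16:18980001-19300000 and chr16:23900001-24400000 (mm9), which left 240003 of 5432672 Rad21 peaks. The chromosome was singled out because its share of Rad21 peaks differed between i3CBEs cells and stimulated CH12F3 cells. Every Rad21 value of those cells against each other is therefore given as a description. The rule that defines the peaks also lists splenic cells, and the stimulated CH12F3 libraries are those that entered the choice. Rad21 values of spleen against CH12F3, and of stimulated against unstimulated CH12F3, are therefore a description too. Where counts from a fit over all chromosomes are printed for these contrasts, the share over all bins stands beside them and nothing is read from them.

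Rad21 is a core subunit of cohesin, the ring complex that extrudes chromatin loops. Cohesin is loaded and driven by NIPBL and is held at sites bound by CTCF, so Rad21 peaks mark where loops are anchored or where cohesin pauses, often at active promoters and enhancers. In B cells, loop extrusion at the immunoglobulin heavy chain locus is known to bring distant switch regions together during class switch recombination.

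All cells carried the C57BL/6 strain label and were described as deficient in AID, the enzyme that starts class switching, so no group had normal AID. Primary splenic B cells were left unstimulated (3 Rad21 libraries) or stimulated with anti-CD40 and IL-4 for 48 h (3 libraries). CH12F3, a mouse B lymphoma line (titled CH12F3NCdel), was left unstimulated (3 libraries) or stimulated with anti-CD40, IL-4 and TGF-β for 24 h (4 libraries), and i3CBEs cells, whose source is given as CH12F3, received the same stimulation (3 libraries). The labels expand neither NCdel nor i3CBEs, do not say how many clones were used, and in one field call the cells of the CH12F3 and i3CBEs Rad21 libraries splenic. Whether replicates were separate animals or cultures is not stated, and the p-values below therefore reflect library-to-library spread, part or all of which may be technical.

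The lists differed in length, with 42054 to 96984 peaks on chromosomes 1 to 19 and X in i3CBEs, 95462 to 271659 in CH12F3 and 149356 to 1235993 in spleen. They hold no read counts, so sequencing depth is unknown. To make them comparable, each list was cut to its 40000 widest peaks. The narrowest kept peak then measured 186 to 321 bp in CH12F3, 192 to 580 bp in spleen and 51 to 133 bp in i3CBEs, where the shortest list was kept almost whole. Each Rad21 group named 1 control of its own in its peak names, so the control and the group cannot be told apart. The i3CBEs lists had peaks on 31 or 32 reference sequences and all other lists on 22.

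Chromosome 16 held about 6% of the widest Rad21 peaks in CH12F3 cells, about 3.7% in splenic B cells and about 3% in i3CBEs cells. In stimulated CH12F3 cells its share was 5.38%, 6.40%, 6.57% and 6.03% in replicates 1 to 4. In i3CBEs cells it was 3.08%, 2.94% and 2.88%. All 4 CH12F3 libraries therefore lay above all 3 i3CBEs libraries, with means of 6.09% ± 0.527 (SD, n = 4) and 2.97% ± 0.103 (SD, n = 3), a 2.05-fold difference. The size depended on which peaks were kept: the i3CBEs minus CH12F3 difference of -3.12 percentage points became -1.65 with the 40000 peaks of highest −log10 p, and -0.764 (3.24% against 3.999%) with all peaks of −log10 q of 5 or more. The nearest values of the groups, 5.38% and 3.08%, had exact 95% binomial intervals of 5.16% to 5.60% and 2.92% to 3.26%, which cover counting error only.

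Unstimulated CH12F3 cells were close to the stimulated ones, at 5.58%, 6.24% and 5.99%. Splenic cells gave 3.61%, 3.86% and 3.58% without stimulation and 3.71%, 3.77% and 3.88% with it. No splenic library reached the lowest CH12F3 library, and every splenic library lay above every i3CBEs library. Chromosome 16 makes up 3.67% of the span of the 20 chromosomes and carries 3.14% of their protein-coding genes (679 in RefSeq's GRCm38.p6 annotation), so splenic peaks were spread close to the chromosome's length. Including the 2 left-out intervals changed the means little, to 6.26% in stimulated CH12F3 and 3.03% in i3CBEs.

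**Figure D1:**
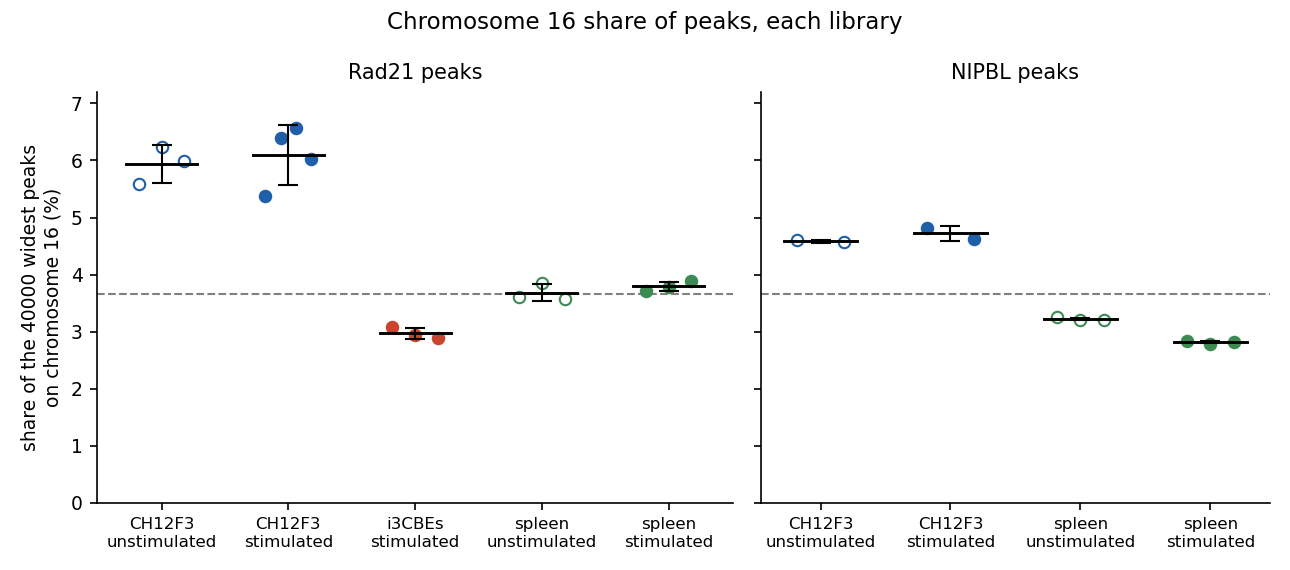
Share of the 40000 widest peaks that lie on chromosome 16 (percent, y axis) for each library, grouped by cells and stimulation, Rad21 on the left and NIPBL on the right. Open points are unstimulated and filled points stimulated libraries, bars are the mean and SD, and the dashed line is the chromosome's 3.67% of the span. All CH12F3 libraries lie above the line, and all i3CBEs Rad21 libraries lie below it.

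Between splenic and CH12F3 Rad21 libraries the groups did not overlap in share. The means were 3.74% ± 0.127 (SD, n = 6) in spleen and 6.03% ± 0.428 (SD, n = 7) in CH12F3, which was 1.61-fold higher. The spleen minus CH12F3 difference within stimulation states was -2.28 percentage points with the widest peaks, -0.945 with the 40000 peaks of highest −log10 p and -0.300 with all peaks of −log10 q of 5 or more. In the last of these the unstimulated groups overlapped, with up to 4.07% in spleen and from 3.84% in CH12F3.

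By ratio of mean shares, CH12F3 over spleen, chromosome 16 (1.61) stood between chromosome 14 (1.85) and chromosome 15 (1.49), with the X chromosome next (1.41). In the comparison with i3CBEs the order was different. Stimulated CH12F3 exceeded i3CBEs 2.05-fold on chromosome 16 and 1.33-fold on chromosome 15, while chromosome 14 was near parity at 0.980 and the X chromosome was lower in CH12F3 at 0.565. Chromosome 14 was thus high in both lines, at 6.71% ± 0.776 (SD, n = 4) in stimulated CH12F3 and 6.85% ± 0.418 (SD, n = 3) in i3CBEs against 3.58% ± 0.130 (SD, n = 3) in stimulated spleen, whereas chromosome 16 was high in CH12F3 and low in i3CBEs.

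**Figure D2:**
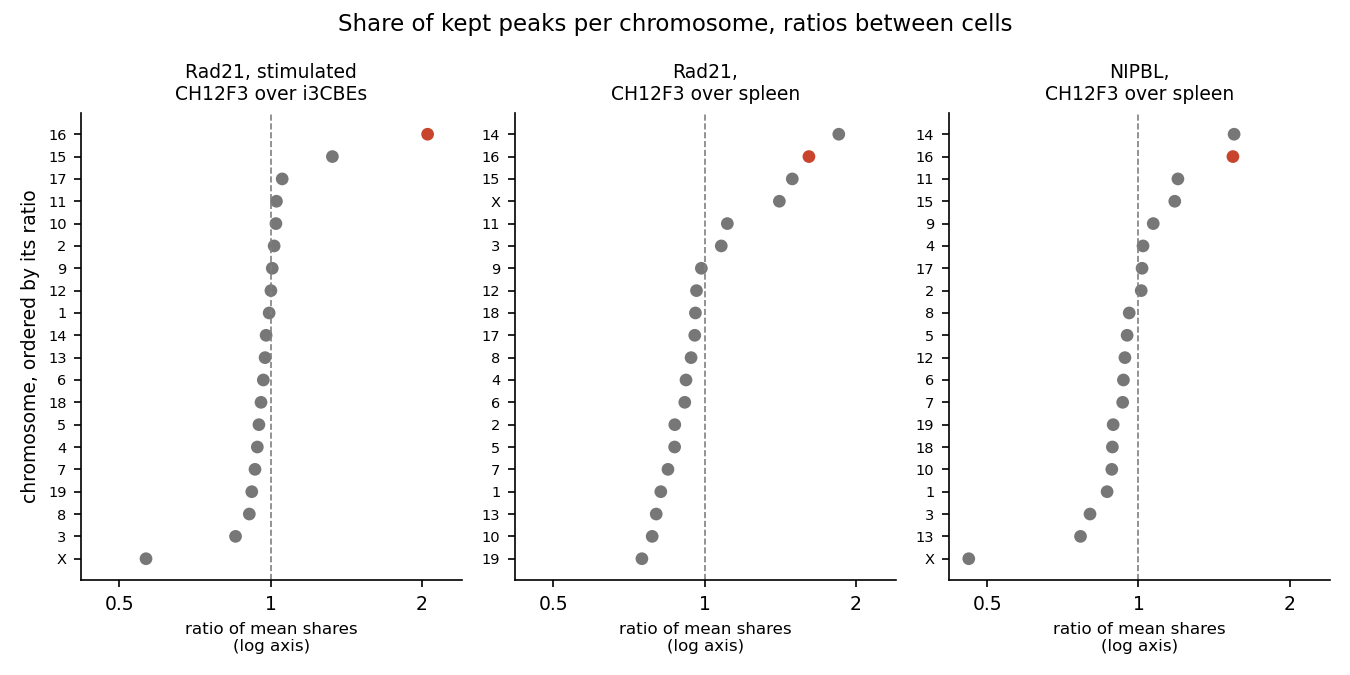
Ratio of mean shares of kept peaks for each of the 20 chromosomes (x axis, log scale), ordered by ratio within each panel, with chromosome 16 in red. Chromosome 16 has the highest ratio of stimulated CH12F3 over i3CBEs (2.05) and the highest but one of CH12F3 over spleen for Rad21 (1.61) and for NIPBL (1.54).

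Shares of stimulated and unstimulated libraries overlapped in CH12F3 and in spleen. In CH12F3 the stimulated mean was 0.154 percentage points above the unstimulated mean of 5.94% ± 0.335 (SD, n = 3). No p-value is given for it, since the stimulated CH12F3 libraries entered the choice of the chromosome. In spleen the stimulated mean of 3.79% ± 0.0873 (SD, n = 3) was 0.108 points above 3.68% ± 0.155 (SD, n = 3), with an exact permutation p of 0.3, and 3 against 3 libraries cannot go below 0.1. Of the 20 chromosomes, 0% passed after adjustment in spleen, but the number of libraries fixed this outcome. With 3 against 3 libraries no chromosome could pass.

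NIPBL, the cohesin loader, was measured in separate libraries that had no part in the choice of the chromosome. In CH12F3 cells chromosome 16 held 4.598% and 4.57% of the 40000 widest NIPBL peaks without stimulation and 4.82% and 4.63% with it. In splenic cells it held 3.25%, 3.21% and 3.21% without stimulation and 2.83%, 2.79% and 2.83% with it, so that all 6 splenic libraries lay below all 4 CH12F3 libraries. The means were 3.02% ± 0.223 (SD, n = 6) and 4.65% ± 0.113 (SD, n = 4), a 1.54-fold difference with a two-sided exact permutation p of 0.01 (the smallest possible) and 0.0154 after adjustment over the chromosomes. In this comparison 65% of the chromosomes passed, so a called difference was not rare, and chromosome 14 had nearly the same ratio, 1.55. The difference of -1.63 points fell to -1.03 with all peaks of −log10 q of 5 or more and to -0.625 with all deposited peaks, without a change of call.

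The CH12F3 NIPBL lists differ in the input they name. Replicate 1 of each state names none and replicate 2 names one, and their shares were 4.598% and 4.82% against 4.57% and 4.63%, while all splenic NIPBL lists name none. Among lists naming no input the difference was -1.69 points, with an exact permutation p of 0.0625, the smallest that those 8 lists allow. Within spleen, the stimulated NIPBL share was below the unstimulated share in every library, with an exact permutation p of 0.1, the smallest possible for 3 against 3.

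Counted along the chromosome, stimulated CH12F3 carried 25.8 ± 2.23 (SD, n = 4) kept Rad21 peaks per 1 Mb of chromosome 16 and 15.1 ± 0.0890 per 1 Mb of the other 19 chromosomes. i3CBEs cells carried 12.6 ± 0.436 (SD, n = 3) and 15.6 ± 0.0166, and stimulated splenic cells 16.0 ± 0.370 (SD, n = 3) and 15.5 ± 0.0195. Chromosome 16 was thus 1.71 times as densely covered as the rest in stimulated CH12F3, 0.805 times in i3CBEs and 1.04 times in stimulated spleen. The i3CBEs minus CH12F3 difference on chromosome 16, -13.2 peaks per 1 Mb, turned to 2.25 when lists were cut to equal covered length. The same ratio was 1.66 in unstimulated CH12F3 and 1.01 in unstimulated spleen.

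The higher CH12F3 counts were not confined to one end of the chromosome. When the span was divided into 4 equal parts, stimulated CH12F3 averaged 791.5, 807.5, 315 and 522.75 kept peaks, and i3CBEs averaged 425, 358, 144 and 261, which gave ratios of 1.86, 2.26, 2.18 and 2.01. Against spleen the ratios of means were 1.73, 1.69, 1.45 and 1.44 in stimulated and 1.86, 1.64, 1.20 and 1.55 in unstimulated cells. In the third part the CH12F3 and splenic libraries overlapped, at 240 to 389 against 189 to 263 stimulated and 243 to 309 against 205 to 265 unstimulated. The third part was the emptiest in every Rad21 group. For NIPBL in stimulated cells the ratio of CH12F3 over spleen was 1.69, 1.87, 0.996 and 1.75 in the same order, near parity in the third part. In unstimulated cells the third part went the other way, with 102 and 119 NIPBL peaks in CH12F3 against 227 to 257 in spleen. Parts 1, 2 and 4 had higher unstimulated means in CH12F3, at 740.5 against 396, 498.5 against 313 and 483.5 against 340.

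Peaks were crowded into few places. Of 92 windows of 1 Mb that lie beyond the first deposited peak and clear of the left-out intervals, 8 averaged under 1 kept peak over the 16 Rad21 libraries and 16 averaged 40 or more. The median window held 13.7, and the 10 fullest windows held 31.8% of the kept peaks. Window counts below are from the 58 windows that averaged at least 5.

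**Figure D3:**
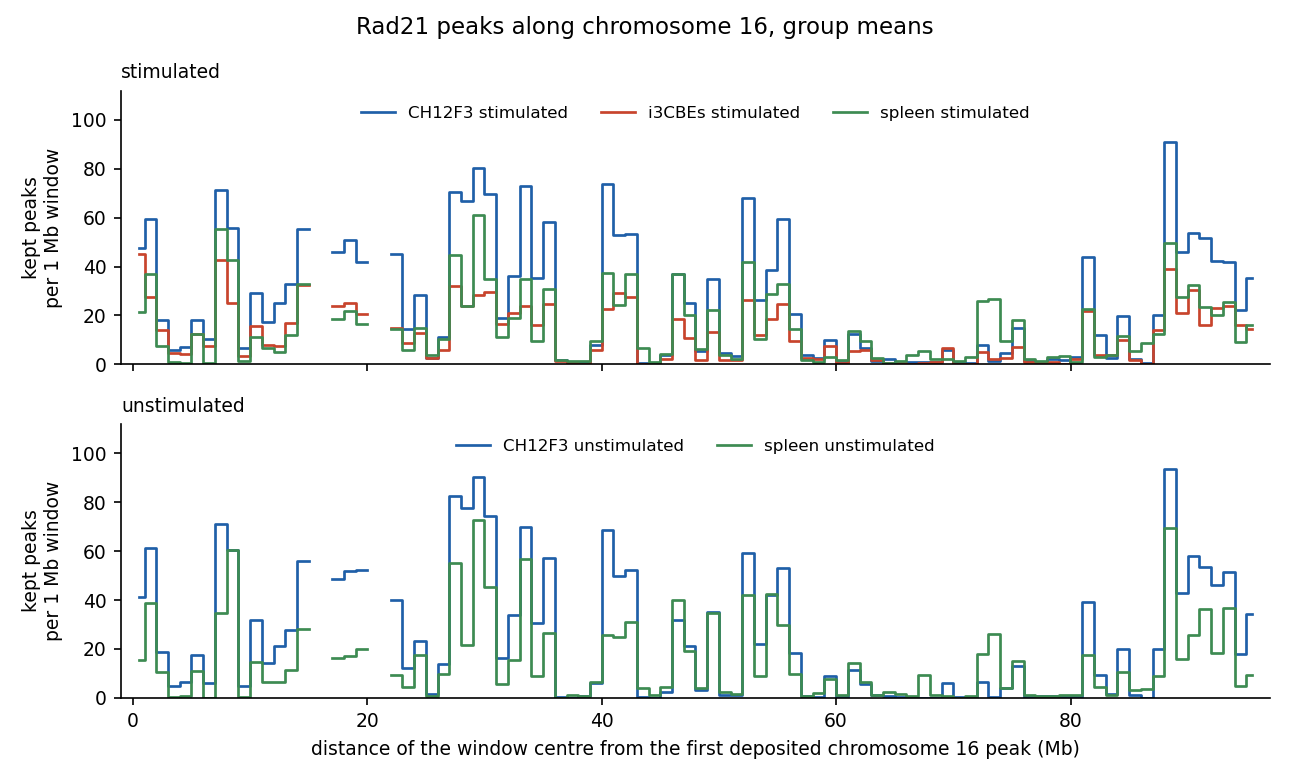
Kept Rad21 peaks per 1 Mb window of chromosome 16 (y axis, mean of each group) against the distance of the window centre from the first deposited peak (x axis, Mb), for stimulated cells above and unstimulated cells below; breaks are windows that touch the left-out intervals. CH12F3 exceeds i3CBEs and spleen in most filled windows, and splenic peaks exceed both lines in a window about 73 Mb from the first peak.

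In 57 of the 58 windows the stimulated CH12F3 mean was above the i3CBEs mean, and the ratio ranged from 0.625 to 3.44 with a median of 2.03. Every CH12F3 library was above every i3CBEs library in 47 windows (81.0%), where 7.17% of 1701 such windows over all chromosomes did so. The reverse order was found in 0 windows on chromosome 16 and in 8.17% over all chromosomes. Since this contrast chose the chromosome, these counts only describe how evenly the difference is spread.

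Against spleen, unstimulated CH12F3 libraries were all above the splenic libraries in 43 of the 58 windows (74.1%, against 28.7% of windows over all chromosomes), and all below in 3 (28% over all chromosomes). For stimulated cells the counts were 42 windows (72.4%, against 17.2%) above and 2 below (19.7% over all chromosomes). The median ratio of CH12F3 over spleen was 1.90 in unstimulated and 1.85 in stimulated cells.

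The fullest window, chr16:91000001-92000000, held 89, 96 and 96 kept peaks in unstimulated CH12F3 and 96, 85, 101 and 81 in stimulated CH12F3. In i3CBEs it held 37, 40 and 40. Splenic libraries held 71, 62 and 76 without stimulation and 46, 55 and 48 with it, so both CH12F3 groups lay above both splenic groups and i3CBEs below all of them.

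Window chr16:32000001-33000000 showed a larger difference from i3CBEs than from spleen. Unstimulated CH12F3 held 87, 87 and 97 peaks there and stimulated CH12F3 80, 81, 89 and 72, against 33, 26 and 26 in i3CBEs. The splenic counts, 79, 68 and 71 unstimulated and 46, 66 and 71 stimulated, ended just below the lowest CH12F3 counts of the same state, 87 and 72. In window chr16:43000001-44000000, by contrast, unstimulated splenic counts (23, 34 and 20) overlapped those of i3CBEs (24, 20 and 24), stimulated splenic counts (34, 37 and 41) lay above them, and all CH12F3 libraries (65, 67 and 74 unstimulated, 51, 70, 111 and 63 stimulated) lay above spleen and i3CBEs.

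The other windows that belong to the fullest 5 were chr16:30000001-31000000, chr16:10000001-11000000 and chr16:36000001-37000000. In each of them all stimulated CH12F3 libraries exceeded all i3CBEs libraries, with group means of 70.5 against 32.0, 71.5 against 42.7 and 72.8 against 24.0. In chr16:10000001-11000000 splenic counts were 31, 32 and 41 without stimulation and 64, 61 and 41 with it, so the splenic groups touched at 41.

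Among the windows named by rule, one went the other way between spleen and both lines. Window chr16:76000001-77000000 held 23, 33 and 22 kept peaks in unstimulated and 31, 25 and 24 in stimulated spleen. CH12F3 libraries held 0, 1 and 0 unstimulated and 0, 2, 0 and 3 stimulated, and i3CBEs libraries held 2 each. For NIPBL the groups overlapped: the window held 9, 8 and 10 and then 9, 4 and 5 widest NIPBL peaks in unstimulated and stimulated spleen, and 6 and 8 and then 4 and 5 in CH12F3. It was among the 5 windows with the largest i3CBEs minus stimulated CH12F3 difference, which shows how small the differences in that direction were: the others, which start at 86000001, 72000001, 71000001 and 66000001, averaged at most 6.7 peaks in i3CBEs.

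Strong and weak peaks did not contribute alike. When each list was ranked by the authors' −log10 p, chromosome 16 took 4.36% ± 0.124 (SD, n = 3) of the first 10000 peaks in unstimulated and 4.39% ± 0.107 (SD, n = 4) in stimulated CH12F3. In i3CBEs it took 3.20% ± 0.0300 (SD, n = 3), and in spleen 3.29% ± 0.0289 and 3.41% ± 0.0751 (SD, n = 3 each). The 7 CH12F3 libraries, at 4.27% to 4.52%, lay above all others in this tier, whose values ran from 3.17% to 3.49%.

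For ranks 10001 to 20000 the cell types ran together, with 3.22% to 3.72% in CH12F3, 2.99% to 3.34% in i3CBEs and 3.21% to 3.88% in spleen. Further down the lists the CH12F3 share was higher. It averaged 5.07% and 5.37% at ranks 20001 to 40000 and 7.0% and 6.86% at ranks 40001 to 80000 in unstimulated and stimulated CH12F3. i3CBEs averaged 2.80% at ranks 20001 to 40000, and splenic groups stayed between 3.72% and 3.95% over both tiers. The group means thus lay furthest apart in the lower-ranked tiers, and a smaller difference was present in the first. Tiers are fixed ranks in lists of 42054 to 1235993 peaks, so the same tier is not equally weak in each list.

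**Figure D4:**
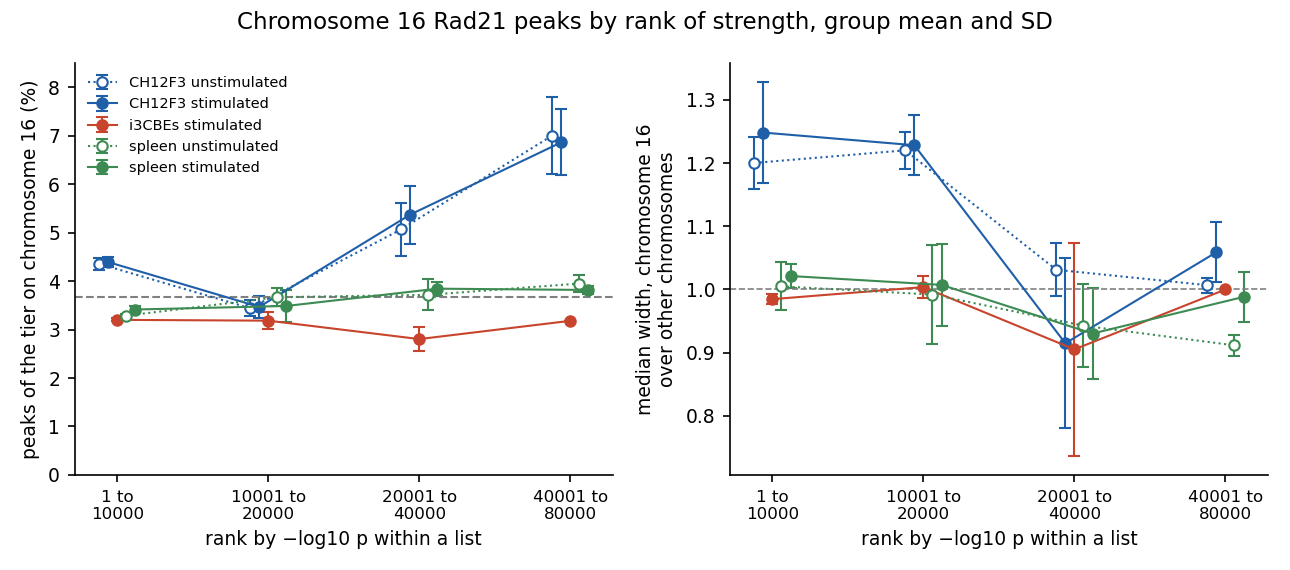
Chromosome 16 Rad21 peaks in tiers of rank by −log10 p within each list (x axis): percent of the tier's peaks on chromosome 16 (left) and median width on chromosome 16 over the median on the other chromosomes (right), as group mean and SD; the dashed lines are 3.67% and 1. In the last tier i3CBEs is 1 library, without SD. CH12F3 reaches 7.0% in the last tier, and its width ratio is 1.20 and 1.25 in the first.

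Kept peaks on chromosome 16 were wider than kept peaks elsewhere in CH12F3 lists, though the ratios of CH12F3 and i3CBEs overlapped. Among the kept peaks, the median width on chromosome 16 was 423, 373 and 497 bp in unstimulated and 443, 357, 483 and 285 bp in stimulated CH12F3, against 378, 352 and 472 bp and 403, 350, 465 and 277 bp on the other chromosomes of the same lists. In all 7 libraries chromosome 16 had the wider peaks. The ratio was 1.06 ± 0.0367 (SD, n = 7) in CH12F3 and 0.995 ± 0.0062 (SD, n = 6) in spleen. In i3CBEs the ratio was 1.0 ± 0.0342 (SD, n = 3), with libraries from 0.977 to 1.04 where CH12F3 libraries ran from 1.02 to 1.12. The spleen minus CH12F3 difference was -0.0673 within stimulation states, and it turned to 0.0303 with all deposited peaks. In that setting the CH12F3 ratios ran from 0.877 to 1.09, and only stimulated replicate 3 was above 1.

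The width difference was larger among strong peaks. In the first 10000 peaks by −log10 p, chromosome 16 peaks of unstimulated CH12F3 measured 564 ± 77.5 bp (SD of library medians, n = 3) against 470.5 ± 69.0 bp elsewhere, and those of stimulated CH12F3 550.5 ± 75.7 bp (SD, n = 4) against 444 ± 79.8 bp. The mean ratios were 1.20 and 1.25. In i3CBEs the ratio was 0.985, and in spleen it was 1.0 unstimulated and 1.02 stimulated. At ranks 20001 to 40000 the mean ratio was 1.03 in unstimulated and 0.915 in stimulated CH12F3. There it was 0.905 in i3CBEs, and 0.943 and 0.930 in unstimulated and stimulated spleen.

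Overlapping kept peaks of the 16 Rad21 libraries were merged into 154277 sites, of which 8082 (5.24%) lay on chromosome 16. Sites kept in all 16 libraries numbered 5121, with 194 (3.79%) on chromosome 16. Chromosome 16 took 834 of 14452 sites (5.77%) present in all 7 CH12F3 libraries, 745 of 24072 (3.09%) present in all 3 i3CBEs libraries and 325 of 8766 (3.71%) present in all 6 splenic libraries. Sites common to every cell type were therefore spread much like the chromosome's length, and those shared by the CH12F3 libraries were not.

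Few sites were kept in all 7 CH12F3 libraries and in no i3CBEs library: 250 in all, of which 78 (31.2%) lay on chromosome 16. Of these 78, 31 (39.7%) still overlapped some deposited i3CBEs peak outside the 40000 widest, against 57.6% of such sites on other chromosomes. A deposited splenic peak overlapped 77 of the 78 (98.7%), against 99.4% on other chromosomes. The splenic and i3CBEs shares are not comparable, since splenic lists held 149356 to 1235993 peaks and i3CBEs lists 42054 to 96984. Also, only 15 of the 78 held no kept splenic peak. The opposite class, sites in all 3 i3CBEs libraries and no CH12F3 library, held 310 sites with 1 (0.323%) on chromosome 16. As the same contrast chose the chromosome, no test was made.

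At the 194 common sites the enrichment itself differed within lists. The median fold enrichment over input was 16.2, 15.5 and 16.1 on chromosome 16 in unstimulated CH12F3, where the other 4927 common sites had 14.3, 13.5 and 14.1. In stimulated CH12F3 it was 20.4, 13.9, 12.3 and 12.2 against 18.9, 12.4, 11.0 and 11.2. Chromosome 16 was the higher in each of these 7 libraries.

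In i3CBEs the order was the other way: 10.1, 9.23 and 8.43 on chromosome 16 against 10.7, 10.3 and 9.40. Splenic libraries also had lower values on chromosome 16, at 19.1, 16.1 and 9.0 against 19.4, 17.1 and 9.67 unstimulated and 8.19, 14.4 and 9.47 against 8.26, 14.9 and 10.3 stimulated. The ratio of chromosome 16 to the rest was 1.14 ± 0.0089 (SD, n = 3) and 1.101 ± 0.0208 (SD, n = 4) in unstimulated and stimulated CH12F3, 0.913 ± 0.0259 (SD, n = 3) in i3CBEs, and 0.951 ± 0.0267 and 0.959 ± 0.0380 (SD, n = 3 each) in spleen. No library of CH12F3 overlapped any library of the other cells in this ratio.

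The covered width at these sites separated the cells in the same way. Its median on chromosome 16 over that elsewhere ranged from 1.29 to 1.44 in the 7 CH12F3 libraries, from 0.926 to 0.974 in i3CBEs and from 0.912 to 1.01 in spleen. Each ratio compares chromosomes inside one list, and no test was made of it. With lists cut by the highest −log10 p instead, CH12F3 libraries again lay above the others in both ratios, but single libraries of the other cells crossed 1: the fold ratio of i3CBEs replicate 1 was 1.002, and 5 of the 6 splenic width ratios were above 1, up to 1.053.

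**Figure D5:**
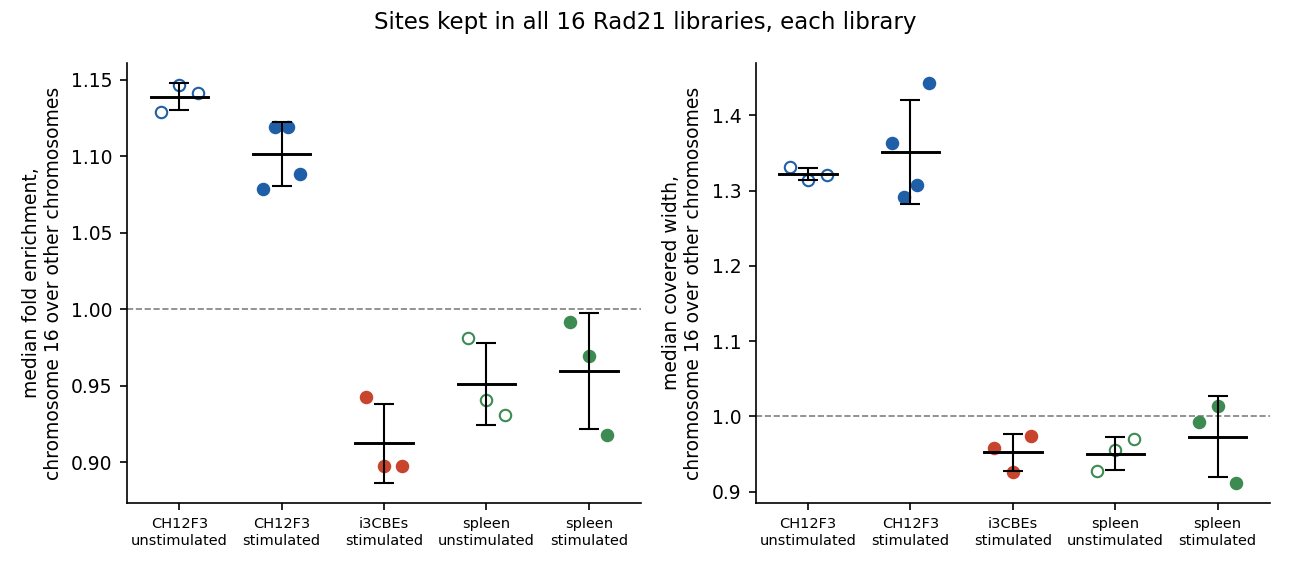
Sites kept in all 16 Rad21 libraries: median fold enrichment (left) and median covered width (right) on chromosome 16 (194 sites) divided by the median on the other chromosomes (4927 sites), 1 point per library, with open points unstimulated, filled points stimulated and bars for mean and SD. The y axes do not start at 0, and the dashed line is a ratio of 1. CH12F3 libraries lie above 1 in both panels and all i3CBEs libraries below.

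The widest common site, chr16:30596722-30608775, spanned 12054 bp when merged. Kept peaks covered 9130, 7927 and 10586 bp of it in unstimulated CH12F3, 7645, 5674, 5145 and 6035 bp in stimulated CH12F3, and 1728, 868 and 1544 bp in i3CBEs. In spleen they covered 9935, 7188 and 5859 bp unstimulated and 2796, 6537 and 3053 bp stimulated. The highest fold enrichment there was 16.7 to 26 in CH12F3, 11.8 to 17.2 in i3CBEs and 10.5 to 24.8 in spleen. Peaks of i3CBEs were narrower on all chromosomes: the covered width of common sites elsewhere averaged 348 bp in i3CBEs and 605 bp in stimulated CH12F3. The other 4 of the 5 widest common sites, which start at 49852648, 30064089, 30675251 and 36707563, were likewise narrowest on average in i3CBEs.

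Between libraries, kept chromosome 16 peaks of i3CBEs overlapped those of CH12F3 more often than the reverse. An i3CBEs peak overlapped a kept peak of a stimulated CH12F3 library by at least 1 base in 76.8% ± 5.49 of cases (SD over 12 library pairs), against 60.9% on other chromosomes. A stimulated CH12F3 peak overlapped one of i3CBEs in 36.7% ± 4.57 of cases, against 61.3%. When the overlap had to cover at least 50% of both peaks, the values on chromosome 16 were 32.1% and 15.7%. Since the cut fixes 40000 peaks per list, the lower share of i3CBEs peaks on chromosome 16 enters both values.

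CH12F3 and splenic peaks stood in the same relation. A CH12F3 peak on chromosome 16 overlapped a splenic one in 34.0% of cases (46.1% elsewhere), and a splenic peak overlapped one of CH12F3 in 53.0% (43.9% elsewhere); with 50% of both peaks these fell to 19.3% and 31.0%. Libraries of the same cells overlapped in 56.8% within CH12F3, 69.6% within i3CBEs and 50.02% within spleen, and in 39.98%, 61.3% and 26.7% with 50% of both peaks. No pair of libraries looked like one library deposited more than once, since at most 1.13% of kept peaks of a list had the same start in another.

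Overlap with the 40000 widest NIPBL peaks of the same state was modest. It amounted to 22.6% and 20.3% of kept chromosome 16 Rad21 peaks in unstimulated and stimulated CH12F3, where other chromosomes had 22.1% and 18.8%. In spleen it was 25.3% and 15.8%, below the 30.3% and 20.1% on other chromosomes. i3CBEs peaks, set against NIPBL in stimulated CH12F3, overlapped in 18.1% (15.4% elsewhere).

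At a finer scale, the percent of each 10 kb bin covered by kept peaks was compared with limma over all bins, with Benjamini-Hochberg adjustment. In unstimulated cells 1886 chromosome 16 bins were tested between spleen and CH12F3, and 0 passed an adjusted p of 0.05, as did 0% of the 42043 bins over all chromosomes. At an unadjusted p under 0.05, limma had 417 chromosome 16 bins lower in spleen (22.1%) and 143 higher (7.58%). The background over all bins was 12.7% lower and 18.5% higher. Nothing is read from these counts, since the rule that defines the peaks lists these cells. The median difference on chromosome 16 was -1.96 percentage points of a bin, against 0.95 over all tested bins. The adjusted count was unstable. With the 40000 peaks of highest −log10 p limma called 316 of 1697 chromosome 16 bins (18.6%, against 18.7% over all bins), and with all 16 libraries in 1 fit 311 of 2734 (11.4%, against 12.7%), so both shares were near the background. Without unstimulated CH12F3 replicate 1, 2 or 3 limma called 247, 316 and 289 bins (14.4%, 18.7% and 17.1%, against 9.37%, 12.8% and 13.2%), and without unstimulated spleen replicate 3 it called 472 (25.8%, against 34.7%). Lower in spleen were 246, 311, 285 and 262 of these, against 3408 of 3610, 4518 of 4960, 4653 of 5153 and 4150 of 13745 over all bins. Nothing is read from these counts either.

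In stimulated cells limma called 0 of 2173 chromosome 16 bins and 0.0022% of the 45432 bins tested. At an unadjusted p under 0.05 it had 212 chromosome 16 bins lower in spleen (9.76%, against 4.82% over all bins) and 129 higher (5.94%, against 13.6%). Again nothing is read from these counts. The median difference was -1.24 points against 0.872 over all bins. Without stimulated spleen replicate 1 limma called 130 of 2096 bins, 108 of them higher in spleen (6.20%, against 12.6% over all bins), and 1 fit of all 16 libraries called 76 of 2734 (2.78%, against 2.7%). Over all bins, 5107 of the 5365 called without replicate 1 were higher in spleen. The 76 were 42 lower and 34 higher, against 449 lower and 1196 higher over all bins.

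The bins with the smallest p were named by rule, and none of them passed the adjustment. Bin chr16:44970001-44980000 was covered to 36.9%, 35.3% and 41.7% in unstimulated CH12F3 and to 0% in all 3 unstimulated splenic libraries. Coverage there was 5.12%, 4.20% and 9.79% in i3CBEs. Bin chr16:25680001-25690000 was at 35.4%, 26.7% and 30.7% in unstimulated and 34.8%, 22.7%, 43.5% and 21.5% in stimulated CH12F3, at 1.43%, 4.33% and 3.15% in i3CBEs, and at 0% in all 6 splenic libraries. Both bins were named for a small p between spleen and CH12F3, so their order in those cells restates the choice. In i3CBEs both were below the CH12F3 values given, in lists whose kept peaks are narrower on all chromosomes. Over the chromosome 16 bins tested between these lines, mean coverage was 1.46% in i3CBEs and 5.87% in stimulated CH12F3.

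In the splenic direction, bin chr16:76370001-76380000 was covered to 29.0%, 27.1% and 19.2% in unstimulated and 15.6%, 33.2% and 32.8% in stimulated spleen. It was at 0% in all 7 CH12F3 and all 3 i3CBEs libraries. It lies in the window chr16:76000001-77000000 described above, as does chr16:76050001-76060000, at 22.4%, 37.7% and 27.2% in stimulated spleen and 0% in both lines.

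Stimulation called no chromosome 16 bin. In CH12F3 limma called 0 of 2218 bins on chromosome 16 and 0% over all chromosomes. At an unadjusted p under 0.05 it had 32 bins with more (1.44%) and 90 with less coverage (4.06%) after stimulation, beside 0.845% and 3.69% of all bins. The median difference of -0.259 points was close to -0.248 over all bins. In spleen limma called 0 of 1504 chromosome 16 bins and 0% over all chromosomes. Below an unadjusted p of 0.05, 56 rose (3.72%, against 3.77% of all bins) and 94 fell (6.25%, against 6.63%). The median difference was -0.102 against -0.280. One fit of all 16 libraries called 56 of 2734 chromosome 16 bins for spleen (2.05%, against 4.41% over all bins) and 0 for CH12F3.

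Some bins stood apart between the splenic states without passing the adjustment. Bin chr16:96300001-96310000 was covered to 29.7%, 34.7% and 12.6% in unstimulated spleen and to 0% in all stimulated splenic libraries (limma adjusted p = 0.109), and to 0% in both lines. Bin chr16:10780001-10790000 was at 6.11%, 7.03% and 6.79% unstimulated and 26.6%, 57.4% and 32.9% stimulated (limma adjusted p = 0.238). It was at 31.9% to 47.2% in all 7 CH12F3 libraries whatever their state, and at 10.8%, 4.85% and 10.1% in i3CBEs.

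For i3CBEs against stimulated CH12F3, limma called 0 of 1915 chromosome 16 bins and 0.0949% of 41113 bins over all chromosomes. The median difference was -2.95 points against -1.31 over all bins. Bin chr16:43500001-43510000 gave the largest difference among those named: 57.7%, 53.7%, 52.4% and 33.9% in stimulated CH12F3, and 0%, 0% and 1.77% in i3CBEs. Nothing is read from these counts, because this contrast chose the chromosome.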

How the data were processed

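The authors aligned to mm9 and called peaks with Bowtie2 and MACS2, per the submitters' processing notes (versions and settings: not given in the sources). Each deposited broadPeak list gives, per peak, a fold enrichment, the p-value and the q-value on the −log10 scale, and a score equal to 10 times −log10 q. The Rad21 lists name an input in their peak names, while most NIPBL lists name none. Each deposited list belongs to 1 library, and the peak names of a Rad21 group give 1 control code. The chromosome, tests and regions were chosen with earlier results of these data known.

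Here peaks on chromosomes 1 to 19 and X were ordered by width (ties by −log10 p, then position) and the 40000 widest were kept per list. NIPBL shares and the effect of stimulation in spleen were compared by two-sided exact permutation tests (numpy 2.4.6), with labels of spleen and CH12F3 exchanged within stimulation state. These were adjusted over 20 chromosomes (statsmodels 0.14.6). Exact binomial intervals were computed with scipy 1.17.1. Tests had also been planned for Rad21 shares and widths of spleen against CH12F3 and for Rad21 shares of stimulated against unstimulated CH12F3. These are given without p-values, because the choice of the chromosome used the CH12F3 libraries. Coverage of 10 kb bins was fitted with limma 3.58.1 with a mean-variance trend, in R 4.3.3, for bins covered in 2 or more libraries; the script was tested on simulated data. Named were, per comparison and direction, the 3 bins of smallest p where none was called, the 5 fullest and 3 emptiest windows, the 5 largest and 3 smallest i3CBEs minus CH12F3 windows, and the 5 widest common sites; the text gives a selection of these. Windows of 1 Mb needed a mean of 5 kept peaks to be counted.

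Alternatives were 20000 widest peaks, equal covered length, highest −log10 p, all peaks, −log10 q of 5 or more, other fits and left-out libraries. Same-numbered stimulated and unstimulated CH12F3 libraries deviated together (correlations of 0.260 to 0.490 over 3 pairs). So did some of different number: stimulated 1 with unstimulated 3 (0.382), stimulated 3 with unstimulated 1 (0.249) and stimulated 4 with unstimulated 2 (0.501). The remaining correlations were negative. The values thus do not pair libraries by number, and the labels state no pairing. No mm9 genome or annotation was used, so bins carry no gene names and no sequences are shown. Input libraries were not analysed here.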

Additional observations from a re-analysis of the deposited data

Results flagged for a closer look

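Of 34 sets of 4 stimulated CH12F3 values on chromosome 16 that were checked, 4 had 1 library far from the other 3 by Dixon's criterion at 95%. Chance alone meets it in about 1 of 20 sets of continuous values. At ranks 20001 to 40000 by −log10 p, the ratio of median width on chromosome 16 to that on other chromosomes was 1.12 in replicate 1, above the other 3 libraries. The other 3 cases were nearly empty 1 Mb windows. There 3 equal counts and 1 other always meet the criterion, so the rate of 1 in 20 does not apply to them. Window chr16:47000001-48000000 held 2 kept peaks in replicate 4 and 0 in the others, window chr16:71000001-72000000 held 3 in replicate 4 and 0 in the others, and window chr16:66000001-67000000 held 0 in replicate 1 and 2 in the others.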

How the results depend on the processing

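Within the settings run, the i3CBEs share stayed below that of stimulated CH12F3. The main difference of -3.12 points became -3.58 with 20000 widest peaks, -4.00 at equal covered length, -1.65 with the highest −log10 p and -0.764 at −log10 q of 5 or more (-3.36 to -2.97 without single replicates). Density per 1 Mb (-13.2) became -7.58, -7.00 and -5.06 with 20000 widest, highest −log10 p and −log10 q of 5 or more, and -89.4 with all peaks; it reversed to 2.25 at equal covered length, where i3CBEs lists keep more, narrower peaks (-14.2 to -12.6 without single replicates). The width ratio (-0.0455) became -0.0837 with 20000 widest and -0.277 at −log10 q of 5 or more (-0.0650 to -0.0280 without single replicates).

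Spleen minus CH12F3 stayed negative for the Rad21 share in every setting run (-2.40 to -2.20 without single replicates; -2.36 without the 3 long splenic lists). Its width ratio reversed to 0.0303 with all peaks and was -0.0644 without the long lists, which were left out after seeing the data (-0.0734 to -0.0568 without single replicates). For NIPBL the difference ranged from -1.68 to -1.58 without single replicates and was -1.69, short of the threshold, in lists naming no input, also added later. The stimulation differences of the Rad21 share ranged from -0.0256 to 0.392 in CH12F3 and from 0.0558 to 0.197 in spleen without single replicates.

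Called chromosome 16 bins, 0 in each comparison, became, for equal covered length, highest −log10 p and 1 fit, 35 of 814 (4.30%, against 3.95% over all bins), 316 and 311 in unstimulated spleen and CH12F3 (0 to 472 without single replicates), and 6 of 1066 (0.563%, against 0.529%), 2 of 1866 (0.107%, against 0.0629%) and 76 in stimulated ones (0 to 130). For splenic stimulation they became 1 of 460 at equal covered length (0.217%, against 0.762%) and 56 in 1 fit. For i3CBEs, where nothing is read from them, they became 1 of 1214 with 20000 widest (0.0824%, against 0.192%), 152 of 1293 at equal covered length (11.8%, against 17.6%), 1 of 1642 with highest −log10 p (0.0609%, against 0.0575%), 5 of 3167 with no filter (0.158%, against 0.0904%) and 6 of 2734 in 1 fit (0.219%, against 0.0984%). Without single replicates the range was 0 to 165, the highest without stimulated CH12F3 replicate 4 (9.48%, against 2.26%). The cause was not tested.

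The replicate block matches libraries by number, and so leaves out stimulated CH12F3 replicate 4. With it, spleen minus CH12F3 was -2.29 and CH12F3 stimulation 0.176. Splenic stimulation was 0.108 (exact permutation p = 0.5), not past the threshold. Called chromosome 16 bins were 0 in each comparison under the block; for i3CBEs, limma called 39 bins over all chromosomes with all libraries, 884 without replicate 4 and 0 with the block. Same-numbered splenic libraries did not deviate together (-0.332 to 0.141). Differences between group means in the fold and width ratios at common sites kept their sign with the highest −log10 p. Depth is unknown, so differences among weak peaks have no counting limit here.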
